A study of Mus musculus with 3 samples.

Results

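The genes described here are 9 that carry colony-stimulating factor signals or mark monocytes and macrophages, taken by name from the 53342 genes of the count table: the ligands Csf1 and Csf2, the receptor chains Csf1r, Csf2ra and Csf2rb, and the surface proteins Cx3cr1, Ly6c2, Ms4a7 and Adgre1. They were measured by RNA sequencing of whole lung from 3 male C57Bl/6 mice, called mouse 4, 5 and 6 after the last digit of each label, in a study of how the drug MIA-602 acts in sarcoidosis. All 3 had received microparticles of Mycobacterium abscessus into the trachea, equal to 1000000 bacteria in 50 µL, so that granulomas would develop, and then daily subdermal doses of 5 µg of MIA-602 over 3 weeks (MIA-602 blocks receptors for growth hormone-releasing hormone). Untreated and unchallenged lungs were not analysed here. The 3 libraries therefore form 1 group, and their values show levels and the spread between treated mice, not an effect of either agent.

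Csf1 encodes M-CSF, the growth factor on which most tissue macrophages depend, and its receptor is the tyrosine kinase Csf1r, which Il34 also binds. Csf2 encodes GM-CSF, which in lung is needed for alveolar macrophages to mature and to clear surfactant. GM-CSF binds the chain Csf2ra, and the chain Csf2rb, shared with the IL-3 and IL-5 receptors, carries the signal through Jak2 and Stat5. In mice, classical monocytes carry much Ly6C and patrolling monocytes much Cx3cr1, while Adgre1 (F4/80) and Ms4a7 appear on macrophages.

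Every one of the 9 genes was well above the detection limit in every lung. Levels are given in CPM (counts set to a common total of 1000000 after TMM scaling) or in CPM per kilobase of exon where genes are compared with each other. Library totals ranged from 31579465 to 43845715 counts, so 1 count was worth 0.0232 to 0.0315 CPM, and the lowest count of any of the 9 genes was 304, for Csf2 in mouse 5. Sftpc, the surfactant protein that defines alveolar type 2 cells of lung, was at 14532 to 20177 CPM. Mouse 4 stood apart in markers of tissue next to the lung: the 5 skeletal muscle genes listed summed to 4497, 1654 and 1424 CPM in mice 4, 5 and 6, and the 4 keratins of stratified epithelium to 341, 126 and 109.6 CPM. In bulk tissue, fewer cells of a type and less RNA per cell cannot be told apart.

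M-CSF receptor transcripts exceeded those of the M-CSF gene in all 3 lungs, and they varied more between lungs. Csf1r (ENSMUSG00000024621, chromosome 18, 61100598 to 61132149, GRCm38) had 322, 218 and 237 CPM in mice 4, 5 and 6. Mouse 4 was the highest, 1.48 times mouse 5, and mice 5 and 6 lay close together. Csf1 (ENSMUSG00000014599, chromosome 3, 107741048 to 107760469) had 79.8, 69.8 and 76.1 CPM, a range of 1.14 times. Per kilobase of exon the receptor gene had 55.7, 37.7 and 40.98 CPM and the ligand gene 15.1, 13.2 and 14.4 CPM. The difference was 1.63 ± 0.22 on the log2(CPM per kilobase + 0.1) scale (SD, n = 3), or 3.09-fold, higher for Csf1r in 3 of 3 mice. An overlap of 873 exon bases with Hmgxb3, which lies on the opposite strand and had 804 to 1108 counts over its whole length, could have added or removed a small part of the 7503 to 13862 Csf1r counts, since the use of strand in counting is not known.

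The other ligand of Csf1r, Il34, was nearly as abundant as Csf1 per kilobase. Il34, which in mice is known for maintaining microglia and Langerhans cells, stood at 23.5, 23.3 and 27.6 CPM in mice 4, 5 and 6, or 11.99, 11.9 and 14.1 CPM per kilobase. Csf1 lay above it by 0.17 ± 0.15 (log2, SD, n = 3, 3 of 3 mice), a difference hardly larger than its spread. In mouse 6 the Csf1 and Il34 levels were almost the same, at 14.4 and 14.1 CPM per kilobase.

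Of the 9 genes, the binding chain of the GM-CSF receptor was the most abundant per kilobase. The GM-CSF gene was the lowest of them in CPM and next to the lowest per kilobase. Csf2ra (ENSMUSG00000059326, chromosome 19, 61223957 to 61228429) had 322, 205 and 247 CPM in mice 4, 5 and 6, or 112, 71.5 and 85.9 CPM per kilobase. Its mean of 89.8 ± 20.6 CPM per kilobase was above that of 96.9% of the 17636 genes that passed the low-count filter. Csf2rb (ENSMUSG00000071713, chromosome 15, 78325752 to 78353847), the signalling chain, had 203, 134 and 155 CPM, or 27.9, 18.4 and 21.3 CPM per kilobase. Both chains were highest in mouse 4 and lowest in mouse 5. The signalling chain lay below the binding chain by nearly the same amount in each lung, with log2 differences (Csf2rb minus Csf2ra) of −2.00, −1.95 and −2.01 and a mean of −1.99 ± 0.03 (SD, n = 3, negative in 3 of 3 mice).

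Csf2 (ENSMUSG00000018916, chromosome 11, 54247271 to 54249667), the GM-CSF gene, had 398, 304 and 324 counts in mice 4, 5 and 6, or 9.24, 8.41 and 10.2 CPM. Mouse 6 was the highest here, and this was the only one of the 9 genes for which mouse 4 was not. Since its exons span only 800 bases, Csf2 reached 11.5, 10.5 and 12.8 CPM per kilobase, and Csf1 lay above it by 0.30 ± 0.11 (log2, SD, n = 3, 3 of 3 mice), or 1.23-fold. Its antisense neighbour Gm12223, which shares 96 exon bases, had 2 to 4 counts in a library.

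Csf2rb2, a gene beside Csf2rb whose product serves IL-3 alone in mice, is so alike in sequence that part of its reads could belong to Csf2rb. Of the 50-base words in Csf2rb transcripts, 12.3% also occurred in Csf2rb2, and 18.4% of those of Csf2rb2 occurred in Csf2rb. Csf2rb2 stood at 112, 64.2 and 87.2 CPM in mice 4, 5 and 6, and Csf2rb lay above it by 0.29 ± 0.12 per kilobase (log2, SD, n = 3, 3 of 3 mice). The mice fell in the same order for both genes. How the counting step divided shared reads is not given in the sources used here.

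The partners of these receptors were unequal. Il3ra, the IL-3 binding chain, stood at 82.3, 63.4 and 87.9 CPM in mice 4, 5 and 6, while Il3 had no count in any library, which allows up to 0.0696, 0.0830 and 0.0946 CPM (3 counts per library). Il5ra had 1.72, 1.41 and 1.70 CPM and Il5, the eosinophil growth factor, 7, 5 and 3 counts. Csf3, the gene of G-CSF, had 9, 3 and 11 counts. Pooled, that is 0.207 CPM with an exact 95% Poisson interval of 0.131 to 0.311, which covers counting error only. Its receptor Csf3r, found on neutrophils and monocytes, was at 117, 79.8 and 79.3 CPM, highest in mouse 4.

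**Figure D1:**
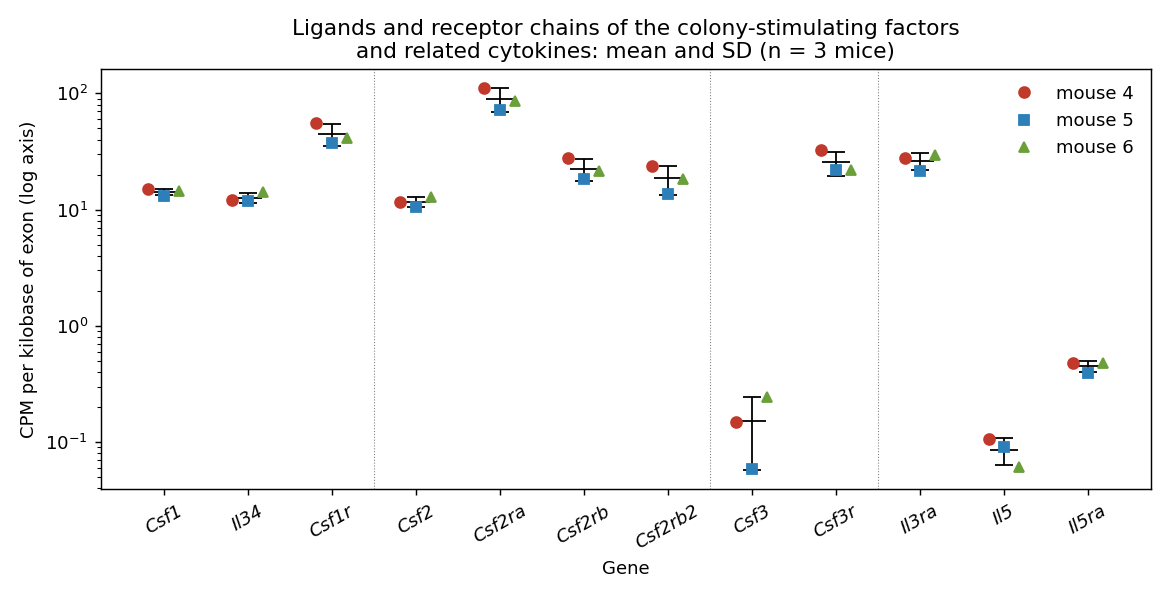
CPM per kilobase of exon (log axis) of ligand and receptor genes in mice 4, 5 and 6 (points), with the mean and SD over the 3 mice (bars). Csf2ra is the highest at 71.5 to 112 CPM per kilobase, Csf1, Il34 and Csf2 lie between 10.5 and 15.1, and Csf3 and Il5 are below 0.25; Il3, at 0 counts, is not drawn.

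Genes downstream of the receptors were all expressed. Of the 12 signalling genes, 10 were highest in mouse 4, as were 33.5% of all genes tested. Their median ratio of highest to lowest mouse was 1.30, against 1.21 for all genes. Of the 12, 0 reached a ratio of 1.5, beside 15.6% of all genes. Tyrobp (DAP12), an adaptor that works with Csf1r, was the highest per kilobase at 338, 230 and 262 CPM in mice 4, 5 and 6. The adaptor Grb2 stood at 218, 170 and 186 CPM and the STAT5 target Pim1 at 204, 157 and 193 CPM. Stat5b hardly differed between lungs, at 73.4, 67.9 and 70.95 CPM, and Cish, another STAT5 target, was highest in mouse 5, at 46.7, 60.6 and 46.9 CPM.

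Transcription factors of the lineage gave a mixed picture, with 7 of 10 highest in mouse 4, beside 33.5% of all genes. Spi1 (PU.1), required for the whole myeloid lineage and for Csf1r expression, stood at 202, 125 and 158 CPM in mice 4, 5 and 6, a range of 1.61 times. Cebpb was at 270, 212 and 257 CPM and Irf8 at 266, 189 and 260 CPM, but Klf4 was highest in mouse 5, at 79.2, 96.9 and 67.0 CPM. Nr4a1, on which patrolling monocytes depend in mice, was level at 47.3, 44.7 and 47.6 CPM.

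Transcripts of Ly6c2 exceeded those of Cx3cr1 per kilobase, and the gap was widest in mouse 4. Cx3cr1 (ENSMUSG00000052336, chromosome 9, 119901616 to 120069879), the fractalkine receptor, had 46.3, 41.9 and 45.7 CPM in mice 4, 5 and 6, a range of 1.11 times. Ly6c2 (ENSMUSG00000022584, chromosome 15, 75108158 to 75111970), the Ly6C protein of classical monocytes, had 130, 73.7 and 92.4 CPM. Mouse 4 had 1.76 times the Ly6c2 level of mouse 5, the widest range among the 9 genes. Per kilobase, Cx3cr1 minus Ly6c2 came to −2.19, −1.52 and −1.72 (log2), with a mean of −1.81 ± 0.34 (SD, n = 3, negative in 3 of 3 mice), so Ly6c2 was 3.51-fold higher. The annotated Cx3cr1 locus spans several other genes, but it shared exon bases with a single one, 78 with the antisense transcript Gm33858, which had 51 to 91 counts.

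Signals that place monocytes in tissue varied less than Ly6c2. Cx3cl1 (fractalkine), the ligand of Cx3cr1, stood at 51.4, 46.2 and 49.7 CPM in mice 4, 5 and 6. Ccr2, the receptor by which classical monocytes leave bone marrow, was at 114, 121 and 115 CPM, a range of 1.06 times. Its ligands Ccl2, Ccl7 and Ccl12 lay at 13.7 to 19.3, 9.60 to 15.3 and 6.61 to 9.40 CPM. The 6 classical monocyte genes listed beside Ly6c2 were split, with 3 highest in mouse 4, 1 in mouse 5 and 2 in mouse 6, and summed to 318, 308 and 316 CPM. Plac8 stood at 72.8 and 84.4 CPM in mice 4 and 6 and was lowest in mouse 5. Of these 6 genes, 2 ranged as widely as 1.5 times, both highest in mouse 4. F13a1 ranged 1.77 times, at 29.0, 25.1 and 16.4 CPM in mice 4, 5 and 6, and Sirpb1c 1.52 times. Of the 9 patrolling monocyte genes, 3 were highest in mouse 4, 4 in mouse 5 and 2 in mouse 6. Fcgr4, an activating antibody receptor, had 76.2, 50.5 and 68.0 CPM in mice 4, 5 and 6, the integrin chain Itgal 190, 129 and 164 CPM, and Eno3, also a muscle enolase, 186, 81.3 and 76.6 CPM. Ace, also of endothelium, was highest in mouse 5, at 421, 542 and 385 CPM, as were the low genes Treml4, at 8.80, 9.82 and 9.65 CPM, and Cd300e, at 1.76, 2.41 and 2.02 CPM.

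Ly6c2 lies in a cluster of Ly6 genes, and its nearest copy, Ly6c1, is known for endothelial expression. The sequences before the start of both genes are shown because the pair is closely alike yet differed in how far the mice were apart. They are the 250 bases before the most upstream start in RefSeq on GRCm38.p6, read on the minus strand (Ly6c2, chr15:75111972-75112221, and Ly6c1, chr15:75048838-75049087). Csf2ra (chr19:61228419-61228668, minus strand) follows as another gene that held the word searched for. Capitals mark GAGGAAG, a purine-rich word of the kind that PU.1 binds, searched on both strands.
Ly6c2: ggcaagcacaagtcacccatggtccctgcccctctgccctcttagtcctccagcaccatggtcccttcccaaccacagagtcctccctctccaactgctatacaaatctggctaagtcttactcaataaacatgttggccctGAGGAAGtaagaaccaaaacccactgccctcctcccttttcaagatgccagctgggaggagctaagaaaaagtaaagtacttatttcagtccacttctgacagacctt
Ly6c1: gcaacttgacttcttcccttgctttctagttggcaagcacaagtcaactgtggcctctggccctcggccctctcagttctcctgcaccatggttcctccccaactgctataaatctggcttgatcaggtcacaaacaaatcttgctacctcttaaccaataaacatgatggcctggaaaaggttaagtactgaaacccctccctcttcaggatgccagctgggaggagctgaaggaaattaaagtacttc
Csf2ra: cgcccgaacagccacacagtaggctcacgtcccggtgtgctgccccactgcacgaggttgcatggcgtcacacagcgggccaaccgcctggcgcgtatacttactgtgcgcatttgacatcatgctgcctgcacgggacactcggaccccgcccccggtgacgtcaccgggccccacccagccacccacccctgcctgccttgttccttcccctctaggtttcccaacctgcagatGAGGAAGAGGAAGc

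In an alignment of the Ly6c pair, 164 bases were identical and 52 differed, with 68 gap positions, which gives 75.9% identity outside gaps. The Ly6c2 window held the word once, beginning at position −108 from the start, and the Csf2ra window held it at −14 and −8, where the copies overlap by a base. In GENCODE, however, Csf2ra starts at 61228429 on the minus strand, inside the window shown. By that annotation the copy at −8 lies within the gene, and the copy at −14 spans its start. No copy lay in the Ly6c1 window shown, while the window of its other, downstream start held one at −127. The downstream Ly6c2 window overlaps the one shown. It held the same copy again, there at −142, and another at −8. The contrast between the 2 windows shown thus depends on which annotated start is used. Neither window of Ms4a7, whose order of mice was that of Ly6c2 and Csf2ra, held a copy. Windows were found for 6 of the 9 genes, but not for Csf1r, Csf2rb and Adgre1. Those without a window lie on the plus strand, and the 6 with one on the minus strand. The reason was not tested, nor whether the set of all windows lacks other plus-strand genes. Of the 6 genes with windows, 2 held the word in any window (Ly6c2 and Csf2ra). Among all 32851 windows of the same length, 10.6% held it. That share counts windows and not genes, and a gene could have several windows, so it cannot be compared directly with 2 of 6. A match in letters is a description and does not show binding.

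Ly6c1 was far more abundant than Ly6c2 and did not share its pattern. It stood at 335, 347 and 365 CPM in mice 4, 5 and 6, lowest in the mouse where Ly6c2 was highest. Per kilobase, Ly6c2 minus Ly6c1 was −2.57 ± 0.44 (log2, SD, n = 3, negative in 3 of 3 mice). Of the 50-base words of Ly6c2 transcripts, 13.9% also occurred in Ly6c1, so reads from those stretches are uncertain for both. Elsewhere in the cluster, Ly6i followed Ly6c2, at 520, 275 and 399 CPM, and Ly6a (Sca-1) was highest in mouse 6, at 630, 602 and 784 CPM. Ly6e had 2137, 1795 and 2024 CPM, Ly6d 61.9, 42.2 and 62.2 CPM and Ly6k 2.83, 1.71 and 1.99 CPM, and Ly6g, the neutrophil antigen, had 4, 10 and 4 counts.

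The macrophage proteins Ms4a7 and Adgre1 were close in level. Ms4a7 (ENSMUSG00000024672, chromosome 19, 11321039 to 11336146), a membrane protein with 4 passes in the MS4A family, had 87.1, 55.8 and 65.3 CPM in mice 4, 5 and 6. Adgre1 (ENSMUSG00000004730, chromosome 17, 57358691 to 57483527), the adhesion receptor F4/80, had 66.9, 51.1 and 51.4 CPM, with mice 5 and 6 almost equal. Ms4a7 minus Adgre1 was −0.17 ± 0.14 per kilobase (log2, SD, n = 3, negative in 3 of 3 mice), and without division by exon length it turned to 0.29.

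Among the neighbours of Ms4a7 in its cluster, Ms4a6d and Ms4a6c were also highest in mouse 4, at 77.4, 48.2 and 52.5 CPM and at 83.1, 64.3 and 65.9 CPM in mice 4, 5 and 6. Ms4a1 (CD20 of B cells) had the same order, at 36.7, 28.5 and 31.9 CPM, with nearly the same ratio as Ms4a6c (1.29 each), and Ms4a4c did too, at 32.0, 27.99 and 29.9 CPM. The others were highest in mouse 5 or 6 or had few counts. Ms4a4b stood at 43.9 to 58.9 CPM, Ms4a4d at 42.9 to 50.6, Ms4a6b at 42.7 to 51.6, Ms4a8a at 16.95 to 24.1 and Ms4a4a at 3.71 to 4.59 CPM, and Ms4a2, of mast cells and basophils, had 10, 18 and 12 counts. Of the relatives of Adgre1, Adgre5 (CD97) was highest in mouse 5, at 223, 286 and 216 CPM. Adgre4, at 5.92, 6.89 and 6.21 CPM, did not differ detectably between libraries beyond counting error (adjusted p = 0.284, chi-square across all genes with edgeR's scaling).

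**Figure D2:**
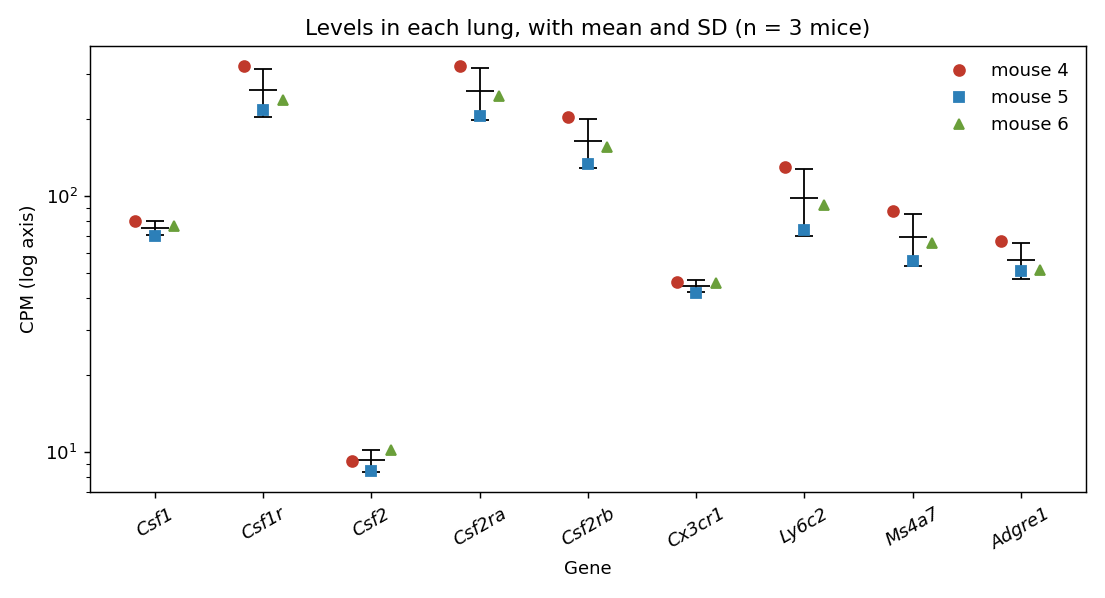
CPM (log axis) of the 9 genes in mice 4, 5 and 6 (points), with the mean and SD over the 3 mice (bars). Csf1r and Csf2ra reach 322 CPM in mouse 4, Csf2 lies between 8.41 and 10.2 CPM, and mouse 4 is the highest for every gene but Csf2.

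By mean level per kilobase the order was Csf2ra, Csf1r, Ly6c2, Csf2rb, Adgre1, Ms4a7, Csf1, Csf2 and Cx3cr1. Means fell to 9.91 ± 0.53 CPM per kilobase for Cx3cr1 at the bottom, against 89.8 ± 20.6 for Csf2ra at the top (SD, n = 3). Each neighbour pair in this order held in 3 of 3 mice except Ms4a7 and Csf1, which differed by 0.11 ± 0.23 (log2) and held in 2 of 3. For Adgre1 and Ms4a7 the difference of 0.17 ± 0.14 was also close to its spread. With 3 mice the exact two-sided sign-flip permutation test can give no p below 0.25, and it gave 0.25 for each of the 9 gene pairs compared here (0.25 after Benjamini-Hochberg adjustment over them), so none could pass.

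The 9 genes differed in how far apart the mice were, in a graded series. Their ratios of highest to lowest mouse had a median of 1.48, against 1.21 for all 17636 genes tested (from CPM + 0.5). Csf2ra, Csf2rb, Ly6c2 and Ms4a7, 4 of the 9, reached 1.5, where 15.6% of all genes did, and in each of the 4 mouse 4 was the highest, as held for 6.04% of all genes. Csf1r, at 1.48, lay just below and Adgre1 at 1.31, while Csf1, Csf2 and Cx3cr1 lay between 1.11 and 1.22. Without mouse 4, 0 of the 9 reached 1.5, as did 5.69% of all genes, and the median ratio was 1.16 for the 9 and 1.12 for all. Without mouse 5 the count was also 0, beside 6.33% of all genes, with medians of 1.30 and 1.11. Without mouse 6 it was 4, beside 10.9% of all genes, with medians of 1.47 and 1.14. Mouse 4 was the highest and mouse 5 the lowest for 8 of the 9 genes, against 19.7% of all genes, and mouse 4 was the highest, whichever was lowest, for 33.5% of all genes. With library totals as the scale, mouse 4 was the highest for 7 of the 9, since Cx3cr1 was then highest in mouse 6, and Adgre1 was lowest in mouse 6. Relative to 3 leukocyte genes it was the highest for 6.

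The test for spread beyond that of genes of like abundance called none of them. In edgeR's quasi-likelihood fit, 0 of the 9 genes and 0.0% of all genes passed at a Benjamini-Hochberg adjusted p of 0.05 (867 genes, 4.92%, had an unadjusted p below 0.05). Ly6c2 and Ms4a7 were 2 of those, with unadjusted p = 0.0244 and 0.0483 and adjusted p = 0.956 each. DESeq2 called 102 genes, or 0.578%, as dispersion outliers, and 0 of the 9 were among them. When every gene with a count was tested, Ly6c2 passed (adjusted p = 0.0123 in edgeR's quasi-likelihood fit), as did 629 of 30751 genes, or 2.05%. In that fit the prior degrees of freedom were infinite, against 3.88 in the main fit. The 2 fits therefore used different reference distributions, and their calls are not directly comparable.

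Set against counting error alone, which compares these libraries and not conditions, 8 of the 9 genes differed between lungs, as did 63.0% of all genes tested (chi-square over 3 libraries, Benjamini-Hochberg adjusted over 17636 genes in the scaling from edgeR). Csf2 was the exception (adjusted p = 0.0757 in the chi-square test across all genes scaled with edgeR), and without mouse 4 it passed (0.0359). Cx3cr1 passed narrowly (0.0158) and missed without mouse 5 (0.776) or with library totals as the scale (0.0937). Csf1 missed without mouse 5 (0.144) and Adgre1 without mouse 4 (0.910), so these calls rested on a single lung. Csf1r, Csf2ra, Csf2rb, Ly6c2 and Ms4a7 passed under each alternative tried.

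General macrophage genes, like the receptors, were highest in mouse 4. This held for all 8 listed, beside 33.5% of all genes. The 8 summed to 14406, 11463 and 11612 CPM in mice 4, 5 and 6, with none at 0. Cd68 stood at 488, 247 and 300.5 CPM, Mpeg1 at 1240, 870 and 986 CPM, Lgmn at 289, 235 and 274 CPM and Lyz2 at 11888, 9790 and 9686 CPM. Of the 10 interstitial macrophage genes 7 were highest in mouse 4, with C1qa at 698, 425 and 581 CPM, C1qb at 509, 312 and 419 CPM and Apoe at 3155, 1859 and 2124 CPM, whereas Lyve1 was highest in mouse 5, at 49.9, 105 and 69.97 CPM.

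Most alveolar macrophage genes were not highest in mouse 4, unlike Csf2ra and Csf2rb. Of 12, 2 were highest in mouse 4, 3 in mouse 5 and 7 in mouse 6, while mouse 4 was the highest for 33.5% of all genes. The 12 summed to 987, 1014 and 1070 CPM, with none at 0. Their median log2 ratio of mouse 4 to mouse 5 was −0.016. Chil3 stood at 352, 430 and 399 CPM in mice 4, 5 and 6. Itgax (CD11c), at 299, 212 and 275 CPM, had the same order of mice as Csf2ra and Csf2rb. Marco, at 76.0, 45.8 and 87.8 CPM, and Fabp4, at 30.7, 21.8 and 31.5 CPM, were also lowest in mouse 5 but highest in mouse 6. Ear2, whose reads can be shared with near-identical family members, was at 44.4, 48.1 and 48.3 CPM, and Car4, also of capillary endothelium, at 63.5, 130 and 89.8 CPM. Pparg, the factor through which GM-CSF acts in alveolar macrophages, was at 8.73, 10.3 and 8.17 CPM.

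**Figure D3:**
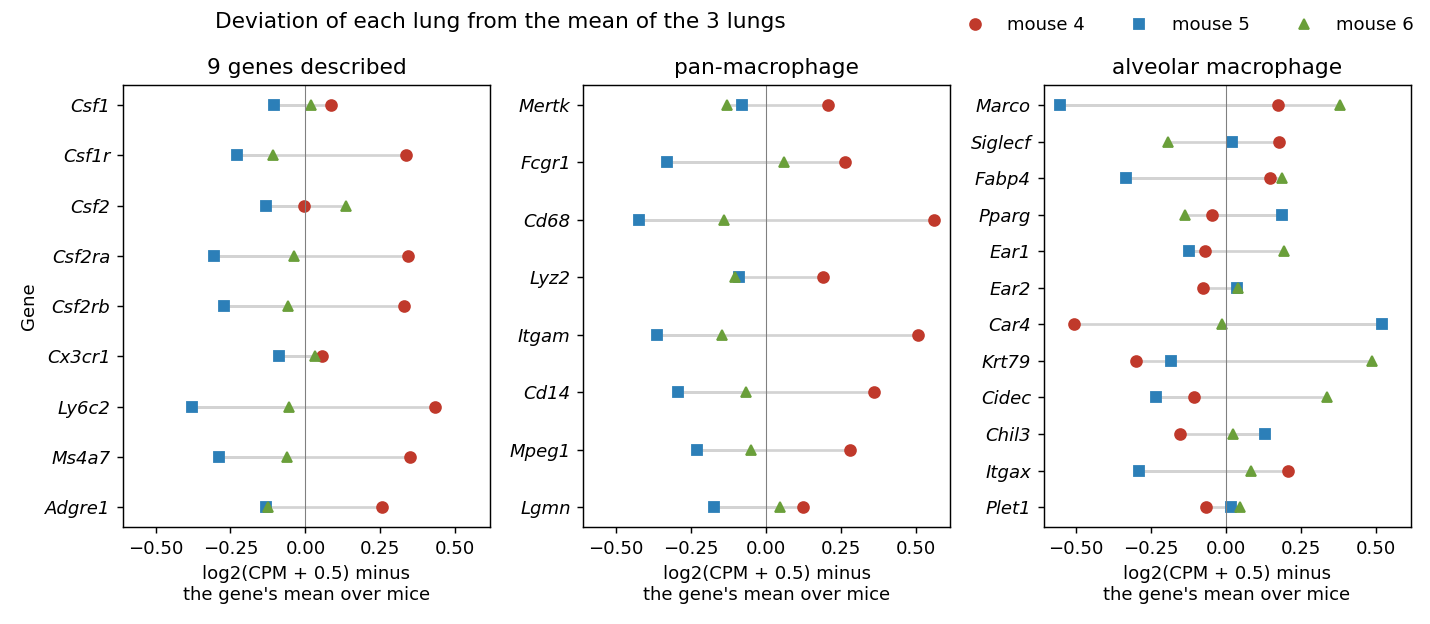
Deviation of each mouse from the gene's mean over 3 mice, in log2(CPM + 0.5), for the 9 genes (left), 8 general macrophage genes (middle) and 12 alveolar macrophage genes (right). Mouse 4 lies farthest right for 8 of the 9 genes and for all 8 macrophage genes, and for 2 of the 12 alveolar macrophage genes.

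Scaling to macrophage transcripts narrowed the spread of Csf1r, Csf2ra, Csf2rb, Ly6c2, Ms4a7 and Adgre1 and widened that of Csf1, Csf2 and Cx3cr1. Divided by the geometric mean of the 8 general macrophage genes in the same lung, which itself ranged 1.48-fold, Csf1r spread 1.05-fold, Csf2ra 1.06-fold, Csf2rb 1.03-fold, Ms4a7 1.06-fold, Adgre1 1.13-fold and Ly6c2 1.19-fold. On that scale 0 of the 9 genes reached 1.5, and mouse 4 was the highest for 5 of them. Csf1, Csf2 and Cx3cr1 spread 1.29-, 1.44- and 1.34-fold, with mouse 4 now the lowest for each. This scale was chosen after the data were seen, and all 8 of its genes were highest in mouse 4. Dividing by it narrows genes of a like pattern and widens level ones by arithmetic, so these changes are no separate result. Divided instead by the arithmetic mean of the leukocyte genes Ptprc, Laptm5 and Coro1a, Csf1r spread 1.55-fold and Ly6c2 1.60-fold. Mouse 4 was still highest for both. That mean was highest in mouse 6, as were Laptm5 and Coro1a. Ptprc, in contrast, was highest in mouse 4, at 320, 260 and 291 CPM in mice 4, 5 and 6. The part that muscle and stratified epithelium in mouse 4 may have in these ratios was not tested.

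**Figure D4:**
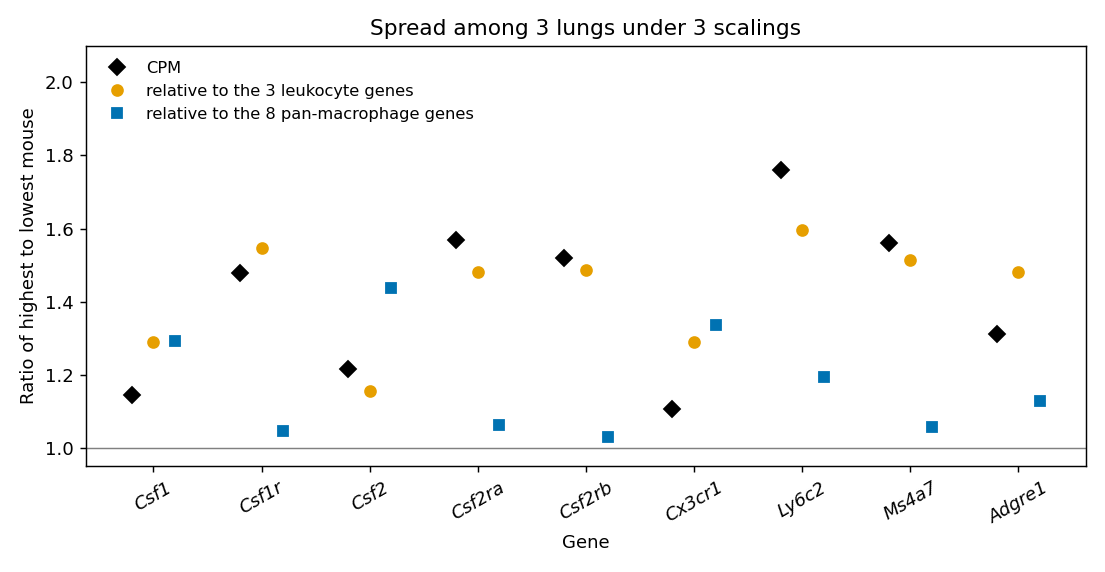
Ratio of highest to lowest mouse for each of the 9 genes in CPM (diamonds), relative to 3 leukocyte genes (circles) and relative to 8 general macrophage genes (squares). The squares of Csf1r, Csf2ra, Csf2rb and Ms4a7 lie at 1.03 to 1.06, below their diamonds at 1.48 to 1.57, and those of Csf1, Csf2 and Cx3cr1 lie above theirs.

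Over 3 mice, likeness to a single gene says little, and the number of like genes shows how common each pattern was. Within 0.1 on the mouse-centred log2(CPM + 0.5) scale lay 3841 genes (21.8% of 17636) for Cx3cr1, 3339 for Csf1 and 2258 for Csf2, but 417 for Csf2rb, 387 for Csf1r, 370 for Csf2ra, 355 for Ms4a7 and 177 for Ly6c2. Adgre1 had 703. Among themselves, Ms4a7 and Csf2rb differed by at most 0.02, Ms4a7 and Csf2ra by 0.02, and Csf1 and Cx3cr1 by 0.03. The genes closest to Ly6c2 were Slamf7, a receptor of lymphocytes and macrophages, at 142, 81.4 and 101 CPM in mice 4, 5 and 6, and Hsd11b2 at 10.2, 5.70 and 7.10 CPM. Closest to Csf2ra were the glycolytic enzyme Eno1, at 347, 223 and 266 CPM, and Ceacam19. For Csf2rb they were Aldh1b1 and Tpi1, for Csf1r D930019O06Rik and Xylt1, for Ms4a7 Olr1, the scavenger receptor LOX-1, and Grip2, and for Adgre1 Fam180a and Tns4. Smad3 and Abraxas1 were closest to Csf1, Crtc1 and Gm45838 to Csf2, and Atad3a and Det1 to Cx3cr1.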

How the data were processed

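Each of the deposited columns holds raw counts for 1 mouse, listed by Ensembl identifier and not normalized before deposit. Per the submitters' processing notes, tools included STAR 2.5.2a, Trim Galore 0.6.2 and bcl2fastq 2.17, with build mm10. The counter with its annotation and strand setting is not given in the sources used here. Symbols, positions and exon lengths came from GENCODE M21 of the same build, which matched 53237 of 53342 identifiers. Totals are in the range given above, and intervals cover counting error only. Spread was tested in edgeR 4.0.16 under R 4.3.3 (TMM, filterByExpr, 17636 genes, intercept alone, robust quasi-likelihood fit, upper-tail F test of residual dispersion against its trend with 3.88 prior degrees of freedom). Counting error was tested by chi-square on TMM-scaled totals. DESeq2 1.42.0, other scalings, filters, pseudocounts (0.01 and 0.5 for 0.1 per kilobase), no length division and leaving out each mouse were alternatives. Python 3.11.15 and scipy 1.17.1 computed levels. Both tests were tried on simulated counts. The 9 genes and the 26 lists (149 genes, all found) were chosen with earlier results of these data known. Named are the 9 genes, the cytokine, Ly6, MS4A, ADGRE and recruitment lists in full, examples out of the 4 highest per kilobase in each other list, and the 2 genes most like each of the 9. Stat5b, Cish, Nr4a1, Pparg, Treml4, Cd300e, Lyve1, Marco, Siglecf, Fabp4 and F13a1 were added after their values were seen. That the mice are separate animals is taken from their labels as separate samples. Some genes of these lists are not reported here.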

Additional observations from a re-analysis of the deposited data

How the results depend on the processing

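Levels of the 9 genes moved by less than 1 SD under each alternative scaling. They did so with each mouse left out as well, but that check could hardly fail. Leaving out 1 of 3 values cannot by itself shift their mean by 1 SD. Calls of spread across all genes numbered 0 in the edgeR fit and 629 with every counted gene, where the prior degrees of freedom were infinite. They numbered 102 with DESeq2, and 0 to 13 with a mouse left out. Calls beyond counting error numbered 11105, and 6998 to 9070 with a mouse left out. Without division by exon length, Csf1r minus Csf2ra changed sign to 0.0085 and Ms4a7 minus Adgre1 to 0.29. With library totals, the ratio of highest to lowest mouse was 1.43 for Csf1r and 1.52 for Csf2ra. Relative to 3 leukocyte genes it was 1.29 for Csf1, 1.55 for Csf1r, 1.48 for Csf2ra, 1.29 for Cx3cr1, 1.60 for Ly6c2 and 1.48 for Adgre1. Relative to 8 general macrophage genes it was 1.29 for Csf1, 1.05 for Csf1r, 1.44 for Csf2, 1.06 for Csf2ra, 1.03 for Csf2rb, 1.34 for Cx3cr1, 1.19 for Ly6c2, 1.06 for Ms4a7 and 1.13 for Adgre1. On that last scale 5 genes were highest in mouse 4 and 0 reached 1.5; mouse 4 was highest for 7 with library totals and 6 relative to leukocyte genes. In CPM with a mouse left out, 0 to 4 genes reached 1.5. The cause of these changes was not tested. No paired comparison of conditions was possible because all samples belong to 1 group. The 3 mice limit every test of spread, and the counts of Csf3, Il3 and Il5 are too low to order the lungs.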

Other observations

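Unlike the M-CSF and GM-CSF receptor genes, all 5 T cell genes and 5 of 6 dendritic cell genes were highest in mouse 6. Cd3d stood at 27.2, 22.6 and 36.9 CPM in mice 4, 5 and 6. Cd3e was at 61.8, 42.2 and 66.2 CPM and Cd4 at 64.7, 40.3 and 66.2 CPM. Clec9a of type 1 dendritic cells was at 44.3, 30.2 and 46.8 CPM. Each of those named was lowest in mouse 5, as the receptor genes were. The median log2 ratio of mouse 4 to mouse 5 was 0.26 for T cell genes and 0.32 for dendritic cell genes, against 0.56 for the 9 genes. Among B cell genes, Cd79a, at 102, 68.3 and 115 CPM, was highest in mouse 6, and Ms4a1 was highest in mouse 4. Neutrophil genes summed to 279, 243 and 183 CPM, with S100a8 at 70.5, 67.5 and 42.6 CPM and S100a9 at 61.6, 69.3 and 42.1 CPM. That sum includes Csf3r, at 117, 79.8 and 79.3 CPM, which gave much of the excess of mouse 4. The 3 mast cell and basophil genes Cpa3, Mcpt8 and Ms4a2 had 18 counts or fewer in every library, while Kit, also of other lung cells, stood at 105 to 136 CPM. Alveolar type 2, club cell and endothelial lists were lowest in mouse 4, unlike the keratins of stratified epithelium, with summed levels of 18601, 25872 and 23109 CPM for alveolar type 2 genes, 8989, 24522 and 21708 for club cell genes and 1133, 1442 and 1173 for endothelial genes. Fibroblast genes summed to 1296, 1735 and 1323 CPM and NK cell genes to 43.99, 54.4 and 56.4 CPM. The fibroblast sum includes Inmt, at 399, 972 and 500 CPM. Of the 4 fibroblast genes, 2 were highest in mouse 4 and 2 in mouse 5. Erythroid genes were highest in mouse 5, at 1235, 2687 and 1413 CPM. These orders are described for 3 mice and were not tested.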
